A study of Mus musculus with 12 samples.

Results

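Chromatin accessibility around 6 receptor genes was examined in natural killer (NK) cells from mouse spleen: Tnfrsf9 (4-1BB), Tnfrsf18 (GITR), Tnfrsf4 (OX40) and Cd27, which belong to the tumour necrosis factor (TNF) receptor family, and Cd28 and Icos, which belong to the CD28 family. The 4 groups were Regnase-1 knockout (KO) cells stimulated with IL-12/18, wild-type (WT) cells stimulated with IL-12/18, KO control cells and WT control cells, with 3 libraries each. The design text names the KO cells as Reg-1ΔNK and the WT cells as Reg-1fl/fl, so the WT cells carry the floxed allele. The driver of the deletion, the age of the mice and the length and dose of stimulation are not given in the sources used here. ATAC-seq, in which a transposase cuts open DNA and attaches sequencing adapters, was run on equal numbers of cells per library. The members were all deposited intervals within 50 kb of the gene bodies (mm10), 44 to 63 of the 35110 to 63128 distinct intervals of a library. Cut to the 35110 strongest intervals of each library and merged across libraries, they formed 53 of the 45082 regions called in at least 2 libraries.

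Receptors of the TNF family bind trimeric ligands and recruit TRAF adaptor proteins, which switch on NF-kB. CD28 and ICOS bind ligands of the B7 family and recruit phosphoinositide 3-kinase through their cytoplasmic tails. All 6 are best known as costimulatory receptors of T cells. In mouse NK cells CD27 marks the less mature cells, and 4-1BB is known as a receptor of activated cells.

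Peak lists carry no value that can be set side by side between libraries. Each interval was therefore given its rank within its own library by the deposited −log10 q, so that rank 1 is the strongest of 35110, and regions were compared by a rank score, log2 of the list length plus 1 over the rank, which is 0 where no interval of the strongest lists overlapped. Total read depth is not given by peak lists. The lists were not equally stringent, since the weakest interval kept had a −log10 q of 1.31 in KO stimulated replicate 1, whose list was the shortest, and of 4.6 to 27.1 in the other libraries. Whether the 3 libraries of a group stem from different mice is not in the labels, and all p-values refer to the spread between libraries, which may be technical. The NK marker genes had 33 regions, of which 25 to 30 were called in KO stimulated, 28 to 30 in WT stimulated, 28 in KO control and 29 to 31 in WT control libraries. T cell markers had 17 regions, with 14 to 16 called in KO stimulated, 13 to 14 in WT stimulated, 14 to 15 in KO control and 13 to 14 in WT control libraries, and Cd8a had none. B cell markers had 18 regions with 7 to 12 called per library, and Ms4a1 had none. Myeloid markers had 6 regions with 5 to 6 called, and Csf1r, Lyz2 and Adgre1 had none, while erythroid markers had 7 regions with 4 to 6 called and Hbb-bs had none.

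Start sites could be placed for 4 of the genes from RefSeq promoter windows (GRCm38.p6, matching mm10), which run from 250 bases before a start site to 50 bases after it. The windows are shown because the groups differed in which of them were overlapped by an interval of the strongest lists. Capitals mark letters matching a motif of NF-kB (GGGNNNTTC, the first 9 letters of a kappa B site), AP-1 (TGANTCA), STAT (TTCNNNGAA), RUNX (TGTGGTTT or ACCACA), T-box (GGTGTGA), ETS (GGAAGT) or OCT (ATGCAAAT), searched on both strands, and no 2 matches overlap. Among 32851 promoter windows of the same length, the letters of the NF-kB motif were in 14%, AP-1 in 7.81%, STAT in 8.3%, the RUNX forms in 1.78% and 16.8%, T-box in 3.98%, ETS in 23.8% and OCT in 1.74%. A match is a description of letters and not of binding.
Tnfrsf9 second start site, chr4:150927749-150928048, plus strand: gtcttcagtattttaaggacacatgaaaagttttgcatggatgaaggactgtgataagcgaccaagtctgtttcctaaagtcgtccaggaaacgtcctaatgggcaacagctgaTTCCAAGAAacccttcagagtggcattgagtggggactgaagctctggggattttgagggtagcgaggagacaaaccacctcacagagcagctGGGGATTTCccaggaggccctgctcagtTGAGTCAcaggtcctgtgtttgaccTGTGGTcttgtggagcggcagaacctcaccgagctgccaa
Tnfrsf9 first start site, chr4:150919905-150920204, plus strand: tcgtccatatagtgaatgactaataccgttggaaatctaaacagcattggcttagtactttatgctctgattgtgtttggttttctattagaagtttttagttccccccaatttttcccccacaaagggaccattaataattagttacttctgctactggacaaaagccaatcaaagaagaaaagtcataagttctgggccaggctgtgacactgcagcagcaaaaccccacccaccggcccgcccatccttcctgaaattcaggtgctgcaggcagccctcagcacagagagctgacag
Tnfrsf18, chr4:156026072-156026371, plus strand: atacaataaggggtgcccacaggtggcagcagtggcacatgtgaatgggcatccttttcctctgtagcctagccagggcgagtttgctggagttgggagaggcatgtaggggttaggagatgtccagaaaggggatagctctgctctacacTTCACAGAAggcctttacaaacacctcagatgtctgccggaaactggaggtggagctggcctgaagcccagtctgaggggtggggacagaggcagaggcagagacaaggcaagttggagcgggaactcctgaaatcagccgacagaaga
Tnfrsf4, chr4:156013445-156013744, plus strand: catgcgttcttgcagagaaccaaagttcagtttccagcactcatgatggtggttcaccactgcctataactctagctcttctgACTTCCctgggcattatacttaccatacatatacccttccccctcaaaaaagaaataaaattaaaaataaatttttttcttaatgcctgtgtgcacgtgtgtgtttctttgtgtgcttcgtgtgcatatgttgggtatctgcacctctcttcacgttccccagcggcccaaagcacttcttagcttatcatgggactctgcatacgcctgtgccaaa
Cd27, chr6:125236978-125237277, minus strand: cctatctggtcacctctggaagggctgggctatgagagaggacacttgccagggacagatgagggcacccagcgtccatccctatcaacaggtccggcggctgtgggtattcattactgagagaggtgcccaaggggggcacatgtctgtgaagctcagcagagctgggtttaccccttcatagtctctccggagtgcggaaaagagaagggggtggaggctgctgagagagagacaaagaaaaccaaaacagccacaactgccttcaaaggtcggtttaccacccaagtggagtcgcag

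The second Tnfrsf9 window was covered over its full length by strong intervals in 12 of 12 libraries, and it holds STAT letters from position -136 relative to the start site, kappa B letters from position -43, AP-1 letters from position -15 and RUNX letters from position 10. The first Tnfrsf9 window was touched by a strong interval in 1 WT stimulated library alone and holds no match. The Tnfrsf18 window, with STAT letters from position -99, was overlapped by an interval of the strongest lists in 2 of 3 KO stimulated, 2 of 3 WT stimulated, 3 of 3 KO control and 3 of 3 WT control libraries. A deposited interval of any strength overlapped it in 3 of 3 libraries of every group. The Tnfrsf4 window, with ETS letters from position -167, was overlapped by no interval of the strongest lists in the 12 libraries. The Cd27 window holds no match and was overlapped by an interval of the strongest lists in 0 of 3 KO stimulated, 0 of 3 WT stimulated, 3 of 3 KO control and 3 of 3 WT control libraries. Intervals of any strength overlapped it in 2 of 3 KO stimulated libraries and in 3 of 3 libraries of each other group.

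Stimulation moved regions near all 6 genes, and in both directions. Of the 53 regions 43 could be tested, and 13 of them (30.2%) ranked higher and 15 (34.9%) lower in stimulated cells (exact two-sided permutation test within genotypes, Benjamini-Hochberg adjusted p at most 0.05 over all regions). Across all 38051 regions tested the shares were 22.6% higher and 28.9% lower, so both shares of the receptor regions were near the background. The median difference in rank score was −0.14 over the receptor regions and −0.10 over all regions. The covered width was greater for 6 and smaller for 8 of 43 regions, against 11.1% greater and 11.2% smaller of all regions tested. Every region that passed near Tnfrsf18 (5 of 7 regions), Tnfrsf4 (3 of 5) and Cd27 (5 of 10) was lower in stimulated cells. Near Tnfrsf9 5 regions were higher and 2 lower of 13, near Icos 5 higher and 2 lower of 15, and near Cd28 3 higher and 1 lower of 8. The windows of Tnfrsf4 and Tnfrsf18 overlap and share 5 regions.

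Distance does not assign a region to a gene. For 26 of the 53 regions the nearest protein-coding gene was another one, and this held for 3 of the 13 higher and 10 of the 15 lower regions. Regions called in both treatments were common, since 24 of the 53 were called in all 12 libraries and could differ in rank but not in calls. Regions with a call in every stimulated library (6) and in no control library numbered 2, at Cd28 and Icos, and 4 showed the opposite, 2 at Cd27 and 1 each at Tnfrsf18 and Icos. These are calls in the strongest lists, and weaker deposited intervals were not counted. The shares of all regions with these patterns of calls were not counted, so the counts are not read as particular to these genes.

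**Figure D1:**
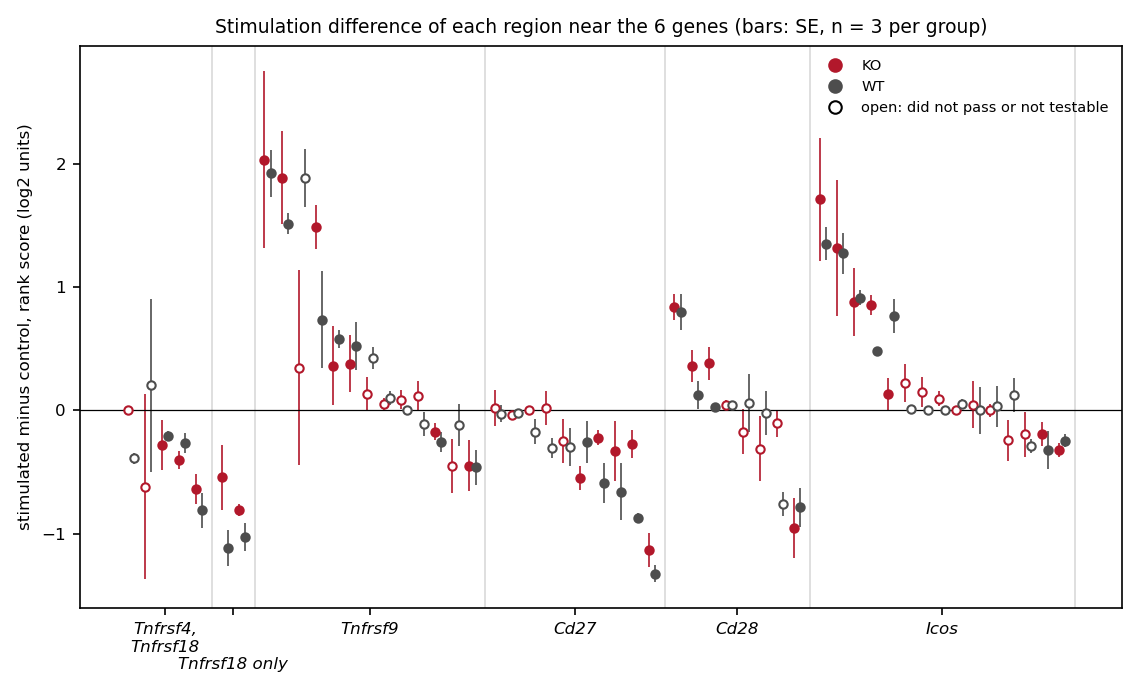
Stimulated minus control difference in rank score (log2 units, vertical axis) for each of the 53 regions, grouped by gene, in KO (red) and WT (grey) cells, with standard errors (n = 3 libraries per group). Filled points are regions that passed the stimulation test. The filled points at Tnfrsf18, Tnfrsf4 and Cd27 all lie below 0, and the highest lie at Tnfrsf9 and Icos.

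Tnfrsf9 had the strongest region of the 6 genes. It encodes 4-1BB, whose ligand is found on activated antigen-presenting cells. The region chr4:150920109-150931196 covers the first part of the gene and both start sites. It ranked 150, 156 and 212 in KO stimulated libraries and 125, 128 and 134 in WT stimulated libraries, against 534, 468 and 441 in KO control libraries and 310, 127 and 253 in WT control libraries. It was thus among the strongest 1.52% of intervals in every library. All 3 KO stimulated libraries ranked above all 3 KO control libraries, while WT control replicate 2 lay within the range of the WT stimulated libraries. The rank score difference was 1.49 ± 0.18 in KO and 0.74 ± 0.39 in WT cells (SE, n = 3 each), and 1.11 over both (exact permutation test, adjusted p = 0.0359). An alternative counted only intervals that covered at least 50% of the merged region. The difference was then 2.14 and did not pass (exact permutation test, adjusted p = 0.3). Of 21 summit positions called in this region 2 were present in all 12 libraries, at 1.29 and 7.82 kb from the lower end of the gene, and the second lies inside the second promoter window. The highest deposited fold over background, 170, belonged to a summit at 4.45 kb, found in 5 of the 6 stimulated and all 6 control libraries.

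A pair of smaller regions on either side of Tnfrsf9 differed more. The region chr4:150916488-150918701, 1.5 kb below the lower end of the gene and 2.53 kb upstream of its first start site, ranked 1789, 4008 and 3180 in KO stimulated and 4261, 4240 and 4664 in WT stimulated libraries. In control cells it ranked 9332, 12851 and 9715 in KO and 11336, 13276 and 13164 in WT libraries. Every stimulated library ranked above every control library, and the difference was 1.89 ± 0.38 in KO and 1.52 ± 0.09 in WT cells (exact permutation test over both, adjusted p = 0.0148, the smallest reached). The region chr4:150964487-150966070, 18.4 kb above the upper end, ranked 774, 4143 and 2472 in KO stimulated and 2169, 1881 and 2105 in WT stimulated libraries, against 9164, 7722 and 7753 in KO control and 6383, 7559 and 9824 in WT control libraries. Here too no stimulated and control library overlapped, and the difference of 2.04 ± 0.72 in KO and 1.93 ± 0.19 in WT cells was the largest at any of the 6 genes (exact permutation test, adjusted p = 0.0148). Its covered width did not pass the test (difference 7 bp).

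The region chr4:150912498-150916486, 3.7 kb below the gene and 2.6 kb from Park7, was wider in stimulated cells. It covered 3170, 3221 and 3319 bp in KO stimulated and 3295, 3484 and 3752 bp in WT stimulated libraries, against 2556, 2761 and 2559 bp in KO control and 2375, 2529 and 2334 bp in WT control libraries. Stimulated and control widths did not overlap (exact permutation test, adjusted p = 0.0275), and the mean difference was 854 bp. Its rank score was higher by 0.45 (exact permutation test, adjusted p = 0.0359), and leaving out any of 8 of the 12 libraries ended that rank call (adjusted p 0.0234 to 0.0884 over the 12). A region 41.1 kb above the gene, chr4:150987194-150988305, nearer to Per3, was higher by 0.47 (exact permutation test, adjusted p = 0.0401), a call that held without KO stimulated replicate 1 or KO control replicate 3 and was lost without any other library (adjusted p up to 0.149). The regions inside Park7 at chr4:150898469-150899641 and chr4:150900920-150902097 were lower by 0.46 and 0.21 (exact permutation test, adjusted p = 0.0259 and 0.0148). At the upper end of Tnfrsf9 chr4:150944176-150948283 did not pass (difference 0.00), with ranks of 22174 to 28496 in KO stimulated, 29873 to 32525 in WT stimulated, 25674 to 29584 in KO control and 25278 to 30702 in WT control libraries. The region chr4:150933523-150934478 inside the gene was among the strongest intervals in 3 libraries, 1 KO stimulated and 2 WT stimulated, too few for the exact test. Intervals of any strength were deposited there in 3 of 3 KO stimulated and 3 of 3 WT stimulated libraries. In control cells they were deposited there in 3 of 3 KO and 1 of 3 WT libraries.

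Tnfrsf18 encodes GITR, and Tnfrsf4, its neighbour, encodes OX40. Both are costimulatory receptors of T cells, and chromatin near them lost rank with stimulation. The region over the Tnfrsf18 start site, chr4:156025854-156027099, ranked 27835 and 29717 in KO stimulated replicates 1 and 2 and was outside the strongest list in replicate 3. In WT stimulated libraries it was outside in replicate 1 and ranked 26562 and 25885 in replicates 2 and 3. It ranked 17976, 19868 and 21576 in KO control and 16093, 16583 and 16722 in WT control libraries. All control libraries thus ranked above all stimulated ones, with a difference of −0.64 ± 0.13 in KO and −0.81 ± 0.14 in WT cells (exact permutation test over both, adjusted p = 0.0148). A deposited interval, strong or weak, was present there in all 12 libraries, and with lists of 17555 intervals the difference was −0.05 and could not be tested exactly.

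Downstream of Tnfrsf18, chr4:156030018-156034216 was lower by 0.33 on the rank score (exact permutation test, adjusted p = 0.0148), with ranks of 17615 to 20161 in KO stimulated and 14407 to 17108 in WT stimulated libraries, against 13260 to 14674 in KO control and 13009 to 13712 in WT control libraries. WT stimulated replicate 3 was the only stimulated library inside the range of the control libraries. The region chr4:156034748-156035613 inside Ttll10 was lower by 0.24 (exact permutation test, adjusted p = 0.0259), a call lost without KO control replicate 1, KO stimulated replicate 1 or KO stimulated replicate 3 (adjusted p up to 0.0682). Farther off, chr4:156067430-156068808 lay 38.5 kb above Tnfrsf18 and was outside the strongest list in 6 of 6 stimulated libraries. It ranked 20134, 21134 and 18790 in KO control and 19749, 17129 and 15016 in WT control libraries, so the treatments did not overlap (difference −0.92, exact permutation test, adjusted p = 0.0148). Weaker deposited intervals remained there in 1 of 3 KO stimulated and 2 of 3 WT stimulated libraries. The region chr4:156076832-156078453, 47.9 kb above, was lower by 0.83 (exact permutation test, adjusted p = 0.0359) and was called in 2 of 3 KO stimulated, 2 of 3 WT stimulated and all control libraries.

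The body of Tnfrsf4 itself held no interval of the strongest lists. A weaker deposited interval over the gene, chr4:156014231-156014684, was present in 2 of 3 WT stimulated libraries and in none of the other groups. The 3 lower regions within its window are the ones already given for Tnfrsf18, the closest being 9.2 kb above its upper end. Between the genes, chr4:156021489-156022662 was among the strongest intervals in WT control libraries alone, at ranks 28401, 25429 and 26700. Weaker deposited intervals were present there in 0 of 3 KO stimulated, 3 of 3 WT stimulated and 3 of 3 KO control libraries. Called in 3 libraries, it could not be tested for stimulation by the exact test, and limma called it lower in stimulated cells (difference −0.19, adjusted p = 0.00205), as it did 25.7% of all regions.

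Cd27 encodes the receptor for CD70. Its start-site region, chr6:125236009-125237796, was outside the strongest list in all 6 stimulated libraries and ranked 27621, 30980 and 32008 in KO control and 29162, 21041 and 20738 in WT control libraries. The treatments therefore did not overlap, with a difference of −0.22 ± 0.06 in KO and −0.59 ± 0.16 in WT cells (exact permutation test over both, adjusted p = 0.0148). In control cells the strongest intervals covered 795, 1288 and 733 bp of it in KO and 1350, 1775 and 1731 bp in WT libraries. Weaker intervals were still deposited in 2 of 3 KO stimulated and 3 of 3 WT stimulated libraries. Upstream by 4.72 kb from the start site, chr6:125241135-125242266 had no deposited interval of any strength in the 6 stimulated libraries. It ranked 33833, 28295 and 25710 in KO control and 19140, 20228 and 18275 in WT control libraries, again without overlap of the treatments (difference −0.27 ± 0.12 in KO and −0.87 ± 0.04 in WT cells, exact permutation test over both, adjusted p = 0.0148).

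The largest difference in the Cd27 window lay over Vamp1, a gene for a vesicle membrane protein, 16.3 kb from Cd27. The region chr6:125215004-125216314 ranked 7313, 5889 and 6703 in KO stimulated and 7654, 6695 and 7543 in WT stimulated libraries, against 2643, 3082 and 3381 in KO control and 3006, 2804 and 2912 in WT control libraries. Every stimulated library was below every control library (difference −1.13 ± 0.14 in KO and −1.33 ± 0.07 in WT cells, exact permutation test, adjusted p = 0.0148). Over Ncapd2 and Mrpl51, chr6:125190890-125193114 was lower by 0.49 (exact permutation test, adjusted p = 0.0359), a call lost without any 1 of the WT control libraries, KO control replicate 1 or KO stimulated replicate 2 (adjusted p up to 0.0702). At the lower end of Cd27, shared with Tapbpl, chr6:125230941-125233133 did not pass (difference −0.14, exact permutation test, adjusted p = 0.23). KO stimulated replicate 1 ranked it highest of the 12 libraries, at 12746, and without that library it passed (difference −0.21, adjusted p = 0.014).

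**Figure D2:**
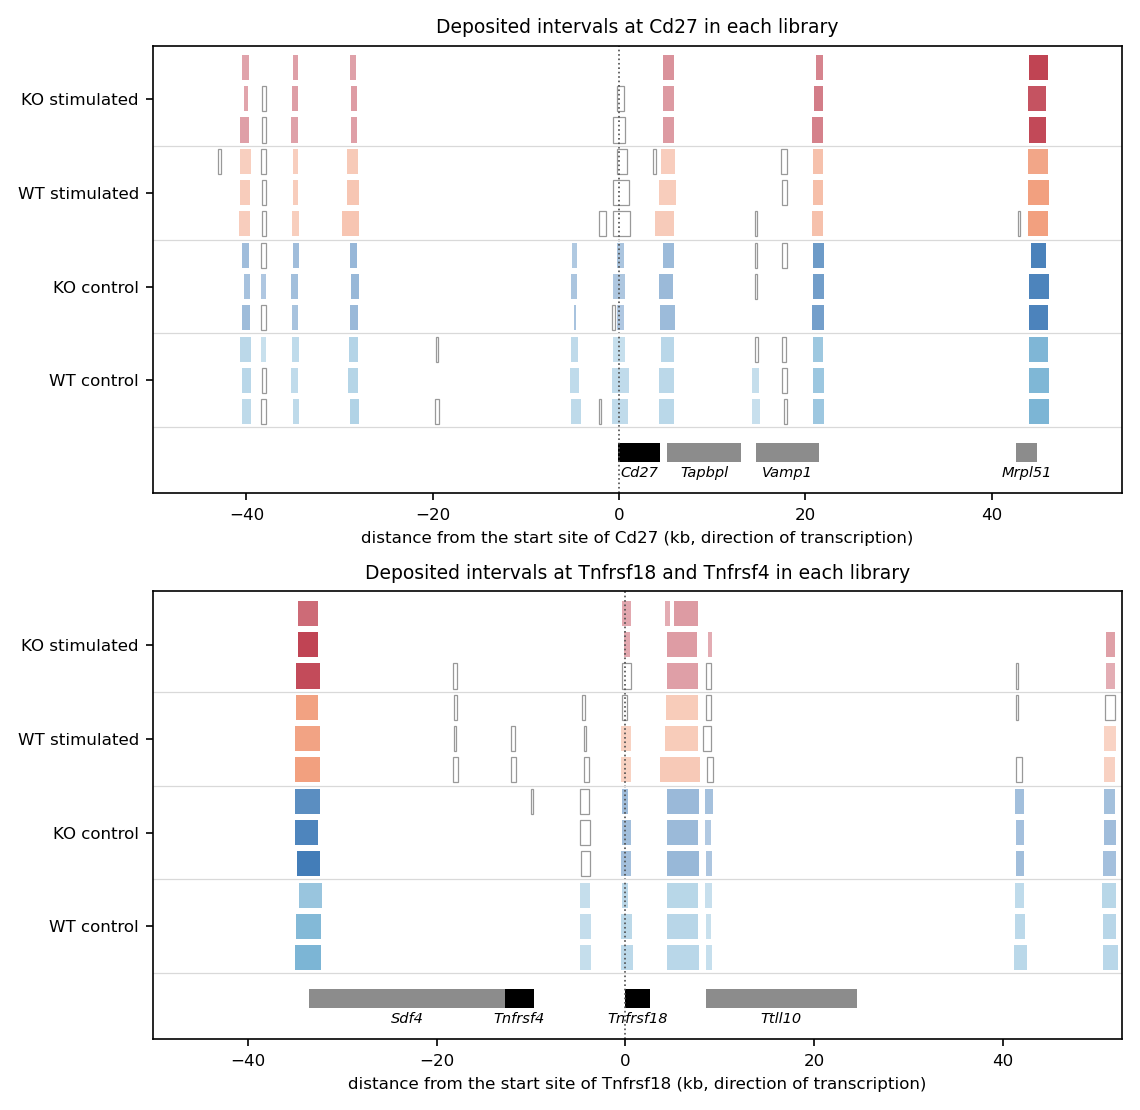
Deposited intervals around Cd27 (upper panel) and around Tnfrsf18 and Tnfrsf4 (lower panel) in the 12 libraries, against the distance in kb from the start site of Cd27 or Tnfrsf18 (dotted line). Filled bars are intervals among the 35110 strongest, darker where stronger, and open bars are weaker deposited intervals. At the Cd27 start site the bars are filled in the 6 control libraries and open or absent in the 6 stimulated ones.

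CD28 is the receptor for CD80 and CD86. The region over the lower end of Cd28, chr1:60745546-60750634, was called in all 12 libraries and did not pass the stimulation test (difference −0.17, exact permutation test, adjusted p = 0.41). It ranked 10124, 7825 and 5882 in KO stimulated, 4549, 5243 and 6527 in WT stimulated, 5256, 7201 and 6455 in KO control and 5728, 4619 and 5629 in WT control libraries, so the 4 groups overlapped. Inside the gene, chr1:60765019-60766126 ranked 17150, 22064 and 19954 in KO stimulated and 16696, 23547 and 20711 in WT stimulated libraries, and no control library had a deposited interval of any strength there. The difference was 0.84 ± 0.11 in KO and 0.80 ± 0.15 in WT cells (exact permutation test over both, adjusted p = 0.0148). All its ranks but 2 were weaker than 17555, and the difference was 0.02 with lists of 17555 intervals and 0.58 at 50% cover, neither testable exactly. T cells carry CD28 and ICOS, and the T cell marker regions called per library are given above. Stimulated cells had 4 of those 17 regions higher and 9 lower (23.5% and 52.9%), against 22.6% and 28.9% of all regions tested. The higher ones were all at Cd6, and the part of T cells in the results at Cd28 and Icos was not tested.

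Other Cd28 regions differed less. Inside the gene, chr1:60761611-60762040 was among the strongest intervals in 3 of 3 KO stimulated, 2 of 3 WT stimulated and no control libraries (difference 0.20, exact permutation test, adjusted p = 0.0401), and the call was lost without any 1 of the KO control libraries (adjusted p up to 0.0801). Intervals of any strength were deposited there in 3 of 3 KO stimulated and 3 of 3 WT stimulated libraries. In control cells they were deposited there in 2 of 3 KO and 2 of 3 WT libraries. At 1.4 kb below the gene chr1:60743843-60744999 was higher by 0.24 (exact permutation test, adjusted p = 0.0401), with overlapping groups, and only leaving out WT stimulated replicate 1 kept that call (adjusted p up to 0.104). The intragenic region chr1:60757909-60758924 did not pass (difference −0.43, exact permutation test, adjusted p = 0.0646). It was among the strongest intervals in 1 of 3 KO stimulated, 0 of 3 WT stimulated, 2 of 3 KO control and 3 of 3 WT control libraries, and it passed as lower without KO control replicate 1 (−0.47, adjusted p = 0.0401) or KO stimulated replicate 1 (−0.45, adjusted p = 0.038). Intervals of any strength were deposited there in 1 of 3 KO stimulated libraries and in 3 of 3 libraries of each other group. The region chr1:60754743-60756418 did not pass (difference −0.06), and chr1:60759475-60760188, called in 1 KO stimulated and 2 WT stimulated libraries, could not be tested exactly. At 43 kb below the gene chr1:60702343-60703371 ranked 33761, 21154 and 21086 in KO stimulated and 17720, 24130 and 24510 in WT stimulated libraries, against 14155, 13021 and 11210 in KO control and 12210, 12239 and 13647 in WT control libraries. All control libraries ranked above all stimulated ones there (exact permutation test, adjusted p = 0.0148), by −0.87 on the rank score.

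ICOS is the receptor for ICOS ligand, and the regions that changed in its window lay outside the gene body. The region chr1:61002422-61003994, 2.1 kb above the upper end, ranked 18623, 21604 and 18013 in KO stimulated and 25677, 24443 and 25201 in WT stimulated libraries and was outside the strongest list in all 6 control libraries. The difference was 0.86 ± 0.08 in KO and 0.48 ± 0.02 in WT cells (exact permutation test over both, adjusted p = 0.0148). Weaker intervals were deposited there in 3 of 3 KO control and 1 of 3 WT control libraries. At 45.2 kb above the gene chr1:61045512-61046988 ranked 2123, 5699 and 6205 in KO stimulated and 5532, 6122 and 7357 in WT stimulated libraries, against 13692, 13153 and 14779 in KO control and 14755, 17041 and 16637 in WT control libraries. At 49.1 kb chr1:61049462-61051164 ranked 2256, 7360 and 6614 in KO stimulated and 3892, 4482 and 4698 in WT stimulated libraries, against 10454, 12658 and 12917 in KO control and 8742, 10658 and 12500 in WT control libraries. The treatments did not overlap at either, and the differences were 1.54 and 1.30 (exact permutation test, adjusted p = 0.0148 for each).

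Inside Ctla4, which encodes the inhibitory CD28-family receptor, chr1:60913081-60913900 ranked 13757, 12250 and 13109 in KO stimulated and 17024, 19624 and 19207 in WT stimulated libraries. In control cells it was called in KO replicates 1 and 3, at ranks 20231 and 19484, and in no WT library. The difference was 0.88 ± 0.28 in KO and 0.92 ± 0.06 in WT cells (exact permutation test over both, adjusted p = 0.0148). The region chr1:61038430-61040549, 38.1 kb above Icos, was higher by 0.45 (exact permutation test, adjusted p = 0.0401) and wider by 521 bp, and the rank call was lost without any 1 of the WT stimulated libraries, KO control replicates 1 or 2 or KO stimulated replicate 3 (adjusted p up to 0.072). Lower were chr1:61030011-61031188, 29.7 kb above Icos, among the strongest intervals in no stimulated library and in every control library (−0.28, exact permutation test, adjusted p = 0.0148), and a region 0.5 kb from Ctla4 (difference −0.26, exact permutation test, adjusted p = 0.0401). At chr1:61030011-61031188 weaker intervals were still deposited in 1 of 3 KO stimulated and 3 of 3 WT stimulated libraries. Within Icos itself none of 3 regions passed, and 1 of them could not be tested exactly. The strongest, chr1:60977249-60979701, ranked 12870 to 13278 in KO stimulated, 11787 to 17147 in WT stimulated, 12277 to 14001 in KO control and 13449 to 15389 in WT control libraries. The one nearest the lower end, chr1:60960909-60961351, was among the strongest intervals in 2 WT stimulated libraries alone, and chr1:60989953-60991148 differed by −0.24 (exact permutation test, adjusted p = 0.0567), which passed without KO control replicate 1 (−0.28, adjusted p = 0.0454) or KO stimulated replicate 1 (−0.30, adjusted p = 0.0325). At chr1:60960909-60961351 intervals of any strength were deposited in 1 of 3 KO stimulated and 3 of 3 WT stimulated libraries. In control cells they were deposited there in 2 of 3 KO and 3 of 3 WT libraries.

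**Figure D3:**
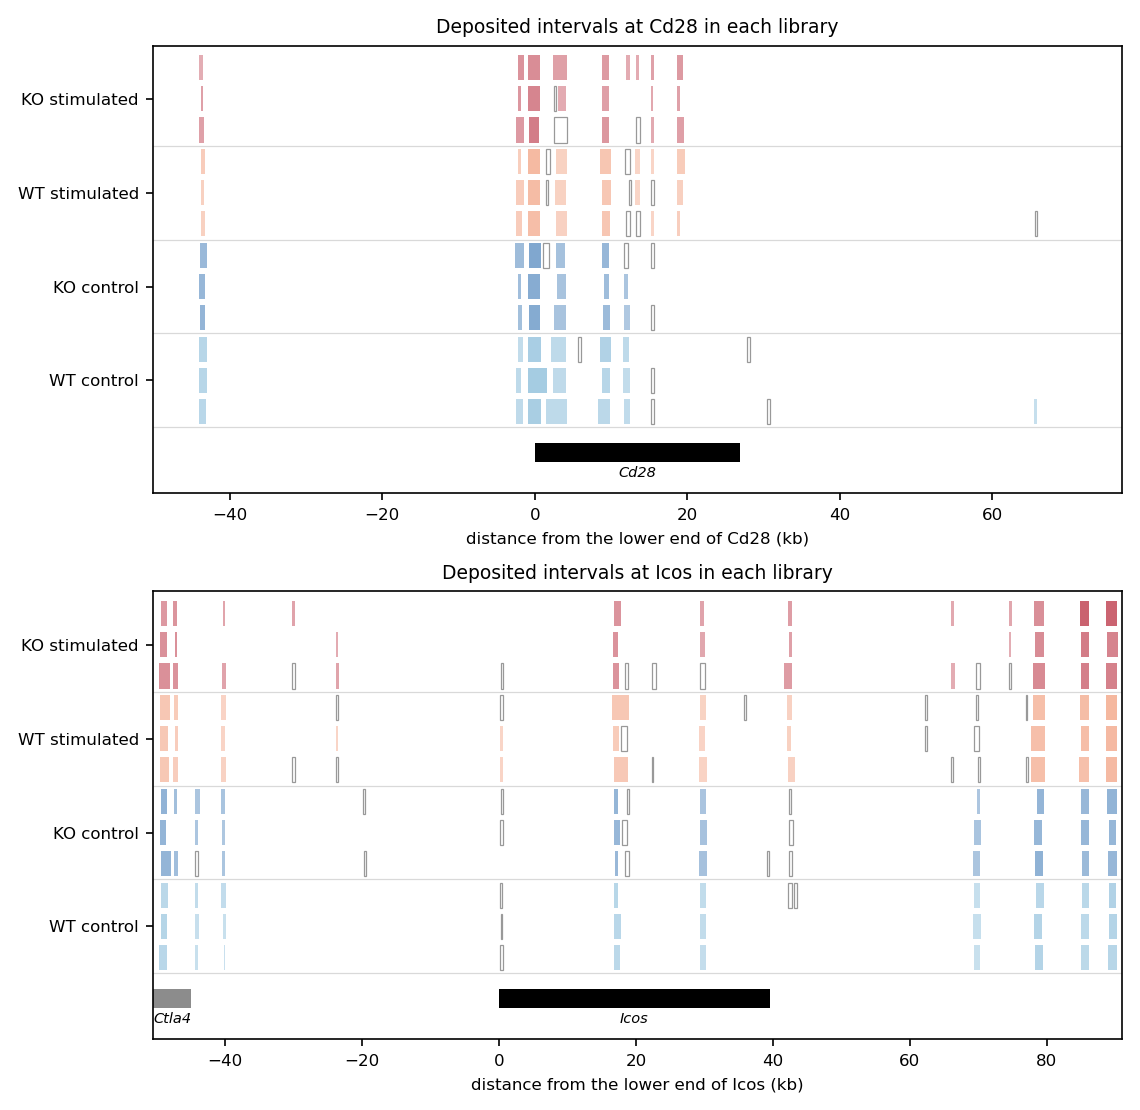
Deposited intervals around Cd28 (upper panel) and Icos (lower panel) in the 12 libraries, against the distance in kb from the lower end of the gene. Filled bars are intervals among the 35110 strongest, darker where stronger, and open bars are weaker deposited intervals. Bars near 19 kb in the Cd28 panel are present in the 6 stimulated libraries and absent in the 6 control libraries.

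Summed over the 50 kb windows, stimulated cells had less strong open chromatin at 3 of the 6 genes. The windows of Tnfrsf4 and Tnfrsf18 overlap, so the values of these genes count many of the same bases and are not separate results. The length covered by the strongest intervals at Cd27 was 5.72, 5.75 and 6.62 kb in KO stimulated and 7.45, 8.04 and 9.01 kb in WT stimulated libraries, against 7.46, 9.52 and 8.27 kb in KO control and 10.05, 11.12 and 11.33 kb in WT control libraries. At Tnfrsf18 it was 6.20, 7.38 and 6.85 kb in KO stimulated and 5.79, 8.39 and 9.09 kb in WT stimulated libraries, against 9.61, 9.34 and 9.57 kb in KO control and 10.62, 11.22 and 12.06 kb in WT control libraries. Within each genotype every stimulated library was below every control library at both genes, and so it was at Tnfrsf4. The mean differences were −2.53 kb at Cd27, −3.12 kb at Tnfrsf18 and −1.52 kb at Tnfrsf4 (exact permutation test, adjusted p = 0.0307 for each over all genes). The call at Tnfrsf18 was lost without WT control replicate 3, and that at Tnfrsf4 without WT control replicate 2 or 3 (adjusted p = 0.0535 at most). Of all genes tested 7.97% had a greater and 14.4% a smaller covered length with stimulation. Tnfrsf9 had 3.14 kb more (exact permutation test, adjusted p = 0.0962), Icos 2.02 kb more (adjusted p = 0.0666) and Cd28 0.42 kb less (difference −0.42 kb, adjusted p = 0.601), none of which passed, while without KO stimulated replicate 2 both Tnfrsf9 (3.91 kb, adjusted p = 0.0308) and Icos (2.40 kb, adjusted p = 0.0308) did. With all deposited intervals in place of equal lists none of the 6 genes passed (Cd27 −1.47 kb, Tnfrsf18 −2.10 kb and Tnfrsf4 −0.86 kb, exact permutation test, adjusted p = 0.168, 0.129 and 0.337). With lists of 17555 intervals Cd27 did not pass (−1.28 kb, exact permutation test, adjusted p = 0.112) and Icos did, as greater (2.08 kb, adjusted p = 0.0286). The strongest intervals covered 35.7 to 41.3 Mb of the genome in KO stimulated, 42.5 to 47.1 Mb in WT stimulated, 39.5 to 40.9 Mb in KO control and 39.3 to 46.0 Mb in WT control libraries.

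**Figure D4:**
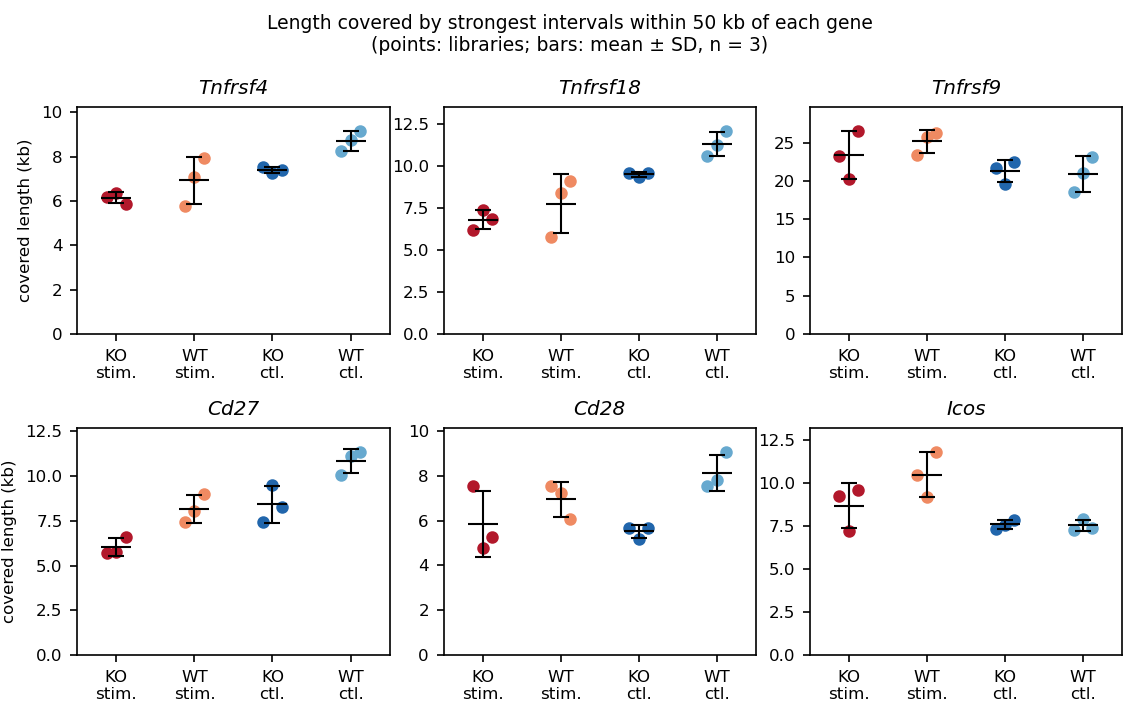
Length in kb covered by the strongest intervals within 50 kb of each gene. Points are libraries and bars the mean ± SD (n = 3) of KO stimulated, WT stimulated, KO control and WT control cells, left to right. At Tnfrsf18 and Cd27 the stimulated libraries lie below the control libraries of the same genotype, and at Icos the stimulated libraries spread upward, from 7.20 to 11.81 kb.

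Regnase-1, an RNase that degrades transcripts of inflammatory genes, was deleted in the KO cells, and the same regions were compared between genotypes within treatments. No region passed for rank, 0 of 34 near the receptors and 0% of 33099 overall (exact permutation test, smallest adjusted p = 0.0852). At an unadjusted p of 0.05 or less there were 8, of which 3 were higher and 5 lower in KO cells, against 20.4% of all regions tested, and limma called 1 higher and 5 lower of the 53, against 2.4% higher and 4.46% lower of all regions. For covered width 0 of 34 passed, against 0% of all regions tested, with 7 at the unadjusted p, all smaller in KO cells (23.7% of all regions tested, either direction), and 3 smaller by limma, against 5.16% of all regions. For covered length 0 of 6 genes and 0% of all genes tested passed, with 4 genes at an unadjusted p of 0.05 or less (33% of all genes tested), while limma called Cd27 (−2.28 kb, adjusted p = 0.0132) and Cd28 (−1.85 kb, adjusted p = 0.0408) as smaller in KO cells, as it did 12.3% of all genes. The median difference of the covered width over all regions was −118 bp, so values leaned smaller in KO cells over all regions as well. The exact test also passed Cd27 without WT control replicate 1 (−2.47 kb, adjusted p = 0.0368). Over all genes tested the median KO minus WT difference was −548 bases. Before the cut, every KO stimulated list (35110 to 54303 distinct intervals) was shorter than every WT stimulated list (55146 to 63128). Control lists overlapped, with 46971 to 53258 in KO and 42520 to 53440 in WT libraries. The part of list length in the genotype differences was not tested.

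For rank, the regions that reached the smallest unadjusted p were 2. The Tnfrsf9 region chr4:150920109-150931196 ranked weaker in KO than in WT cells, without overlap, in stimulated cells (150 to 212 in KO, 125 to 134 in WT) and in control cells (441 to 534 in KO, 127 to 310 in WT). The difference was −0.78 (exact permutation test, p = 0.005, adjusted p = 0.0852, and limma adjusted p = 0.0421). The region chr6:125264917-125266755, 27.8 kb above Cd27, ranked 22308, 18077 and 19901 in KO stimulated libraries against 14677, 11210 and 10514 in WT stimulated libraries, and 13119, 13621 and 14426 in KO control libraries against 10441, 10933 and 8957 in WT control libraries. KO and WT libraries did not overlap within either treatment (difference −0.59, exact permutation test, p = 0.005, adjusted p = 0.0852, limma adjusted p = 0.00621). It was also lower with stimulation (difference −0.40, exact permutation test, adjusted p = 0.0259), a call lost without WT control replicate 3 or WT stimulated replicate 1 (adjusted p up to 0.062). Limma further called the Ctla4 region chr1:60913081-60913900 as higher in KO cells (0.53, adjusted p = 0.0415), and chr1:60757909-60758924 in Cd28 (−0.29, adjusted p = 0.0456), chr4:156021489-156022662 between Tnfrsf4 and Tnfrsf18 (−0.19, adjusted p = 0.0159) and chr6:125241135-125242266 upstream of Cd27 (−0.30, adjusted p = 0.023) as lower.

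Whether the response to stimulation differed between KO and WT cells was tested as an interaction. By limma 0 of 53 regions passed at an adjusted p of 0.05 or less, against 0.954% of all 45081 regions. At an unadjusted p of 0.05 or less there were 6, and the share of all regions at that level was not counted. The smallest adjusted p, 0.0516, belonged to chr4:156021489-156022662 between Tnfrsf4 and Tnfrsf18, with a stimulated minus control difference of 0.00 in KO and −0.39 ± 0.05 in WT cells. The KO value is a floor, since the region was outside the strongest list in every KO library. Weaker deposited intervals lay there in 3 of 3 KO control and 0 of 3 KO stimulated libraries. The region passed without WT control replicate 1 (0.43, adjusted p = 0.0477) or KO stimulated replicate 3 (0.39, adjusted p = 0.0477). The region upstream of Cd27, chr6:125241135-125242266, followed (limma adjusted p = 0.0694), and chr1:61002422-61003994 above Icos passed without KO stimulated replicate 2 (0.45, adjusted p = 0.0431). With 3 libraries against 3 an exact permutation test within 1 genotype cannot go below p = 0.1.

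Genes that act with the receptors were counted by regions within 10 kb of the gene, and again changes went both ways. Among 7 genes of ligands and counter-receptors, changed regions were all higher in 1, all lower in 1 and mixed in 2, 1 had none, and Tnfsf18 and Cd70 had no region. Tnfsf4, which encodes OX40 ligand, had 2 higher and 1 lower region, and the leading higher one ranked 22580, 16065 and 14057 in KO stimulated and 13129, 15459 and 14535 in WT stimulated libraries and was absent from the strongest lists of all 6 control libraries (difference 1.16 over both genotypes, exact permutation test, adjusted p = 0.0148). Cd86, a ligand of CD28, had 2 higher and 2 lower regions, Icosl, the ICOS ligand, 2 higher and Cd80 1 lower. In all, 6 of the 19 tested regions of these genes rose (31.6%) and 4 fell (21.1%), against 22.6% and 28.9% of all regions tested.

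In the TRAF and non-canonical NF-kB relay 6 of 11 genes had higher regions alone, 3 with lower regions alone, 1 with both and 1 with neither. Of its 40 tested regions 12 were higher (30%) and 8 lower (20%), against 22.6% and 28.9% of all regions tested, with a median difference of −0.01. Traf2, an adaptor bound by 4-1BB and OX40, had a region at ranks 2010, 2822 and 2494 in KO stimulated and 2383, 2083 and 2289 in WT stimulated libraries, against 5193, 6432 and 6631 in KO control and 7274, 6781 and 7337 in WT control libraries (difference 1.49, exact permutation test, adjusted p = 0.0148). Birc2 and Birc3, the ubiquitin ligases cIAP1 and cIAP2, share a higher region (1.21), and Traf3, which restrains the relay, had 4 higher and 2 lower (1.18 for the leading one). Traf1, itself an NF-kB target, had 2 higher (1.14).

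The 9 genes of CD28 and ICOS signalling comprised 1 with higher regions alone, 3 with lower ones alone and 5 with both. Their 75 tested regions were higher in 18.7% and lower in 38.7% of cases, against 22.6% and 28.9% of all regions tested. Pik3cd, a catalytic subunit of phosphoinositide 3-kinase, had 5 higher and 6 lower regions, led by one with a difference of −1.84, and Grb2, an adaptor, had 2 higher and 4 lower, led by one of 1.43. Pik3r1, a regulatory subunit of the same kinase, had 2 higher and 4 lower, and Grap2, an adaptor, had 5 lower. Among 13 other TNF receptor genes, changed regions were all higher in 3, all lower in 4 and mixed in 2, and 4 had none, with 22.2% of 45 tested regions higher and 37.8% lower. Tnfrsf8, which encodes CD30, had 6 higher and 5 lower regions, and the leading one ranked 1539, 2719 and 1660 in KO stimulated and 1918, 2374 and 2398 in WT stimulated libraries, against 7992, 8772 and 8628 in KO control and 17948, 13095 and 13546 in WT control libraries (difference 2.44, exact permutation test, adjusted p = 0.0148). Tnfrsf1b, the TNF receptor TNFR2, had 1 higher and 6 lower regions, the largest difference being −1.56. Tnfrsf25, which encodes DR3, had 1 higher region (1.27), Fas, the death receptor, 1 higher (0.91) and Tnfrsf13c, the BAFF receptor, 2 lower (−0.92 for the leading one). Of 3 other CD28-family genes Ctla4 had 3 higher and 1 lower region and Pdcd1, which encodes PD-1, 1 of each, and Btla had no region.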

How the data were processed

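ATAC-seq peak lists of 12 libraries were used, 3 in each of 4 groups taken from the sample titles. Per the submitters' processing notes the tools included MACS2 2.1.1.20160309 (peak calling software), Bowtie2 2.3.4.1, cutadapt 4.1, SAMtools 1.15.1, FastQC 0.11.9 and deepTools 3.4.2, with build mm10. The sources used here do not say whether reads were shifted for the transposase. Each deposited list is in narrowPeak form and belongs to 1 library. The deposited fold is the authors' ratio of a peak over its own background, and −log10 p and −log10 q, as deposited, describe 1 peak in 1 library, so these values served only to rank or describe peaks within a list. A library with more reads calls more and wider peaks, which equal list lengths reduce but do not remove.

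Summits of 1 interval were joined, chromosomes 1 to 19, X and Y were kept, lists were cut to the 35110 strongest intervals, and intervals sharing at least 1 bp were merged (Python 3.11.15, numpy 2.4.6, pandas 2.3.3). A region had to be called in 2 or more libraries. The main test was an exact two-sided permutation test with labels rearranged within genotype (for stimulation) or treatment (for Regnase-1 loss), with 400 rearrangements and a smallest p of 0.005, and Benjamini-Hochberg adjustment at 0.05 over all regions or genes whose values allow p of 0.05 or less. The difference of responses was tested with limma 3.58.1 (R 4.3.3). The scripts were tested on simulated data. Gene positions came from a RefSeq table of GRCm38.p6 without strand or exons, so a region over a gene is not split into exons or introns. Promoter windows were matched for Tnfrsf9, Tnfrsf18, Tnfrsf4 and Cd27. Named regions are those over or within 1 kb of a gene and those passing a test, at most 6 per gene by size of difference. In the gene lists at most 5 genes per list were named, by the largest difference among regions that passed. The members and gene lists were chosen with earlier results of these data known. Alternatives were lists of 17555 intervals, all intervals, ranking by fold, calls in place of ranks, 50% cover, summit windows of 250 bp each side, limma, a replicate block, 20 kb windows, each library left out and, chosen after seeing the data, limma with a replicate block.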

Additional observations from a re-analysis of the deposited data

Results flagged for a closer look

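Deposited intervals too weak for the tested lists were present in 4 or more stimulated and in 0 control libraries at 2 places. At chr4:156008096-156008621, 5.0 kb below Tnfrsf4, 4 stimulated libraries held one (1 KO stimulated and 3 WT stimulated) and 0 control libraries did. At chr4:150972986-150973829, 26.9 kb above Tnfrsf9, 5 stimulated libraries held one (2 KO stimulated and 3 WT stimulated) and again 0 control libraries. Both are given because the signal lies in intervals that the comparisons did not use and was absent from the control libraries. At Icos, chr1:60930456-60930907 was deposited in 3 stimulated libraries (2 KO stimulated and 1 WT stimulated) and 0 control libraries. The WT stimulated lists were the longest, with 55146 to 63128 intervals against 42520 to 53440 in WT control libraries, and a longer list can hold weaker intervals. At the first 2 places the deposited folds were 2.56 to 6.34 and 2.85 to 6.7, and neither place was tested.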

How the results depend on the processing

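No difference that passed a test changed direction under an alternative, but of 156 differences 45 had the other sign under at least 1 alternative, in each case without passing. Of 13 regions higher in rank with stimulation, the count was 7 with lists of 17555 intervals, 7 at 50% cover, 3 with calls in place of ranks and 8 within 20 kb. The 15 lower regions became 5, 11, 7 and 7 in that order. Wider regions, 6, became 10 with limma, with or without a replicate block, and 3 within 20 kb, and narrower ones, 8, became 1 with lists of 17555 intervals and 4 within 20 kb. Genes with a changed covered length, 3, became 0 with all deposited intervals and 5 by limma with a replicate block. For Regnase-1 loss limma gave 1 higher and 5 lower regions, 3 narrower regions and 2 genes, against 0 by the exact test. The difference of responses, 0, became 2 with lists of 17555 intervals, 2 at 50% cover, 1 with calls and 1 with summit windows. Of these, chr4:156021489-156022662 was called at 50% cover and with calls, and as its summit window. The others were chr6:125241135-125242266 at 50% cover, and chr1:60913081-60913900 and chr4:156076832-156078453 with lists of 17555 intervals. Rank calls lost with lists of 17555 intervals were at 6 regions, among them chr4:156067430-156068808 (−0.04) and chr4:156076832-156078453 (−0.18). At 50% cover 10 were lost, among them chr1:61002422-61003994 (0.24) and chr6:125241135-125242266 (−0.49, exact permutation test, adjusted p = 0.088). For the lost calls the cause was not tested. Leaving out 1 library gave 8 to 14 higher and 13 to 16 lower regions, 3 to 7 wider and 4 to 9 narrower regions, 1 to 5 genes with a changed covered length for stimulation and 0 to 1 for Regnase-1 loss, and 0 to 1 region for the difference of responses. With a replicate block every count was 0, since 64 rearrangements allow no p below 0.03125 (smallest adjusted p of the called regions 0.0628). Limma with a replicate block, chosen after seeing the data, gave 14 higher and 17 lower regions with stimulation, and 0 higher regions, 4 lower regions, 4 narrower regions and 4 genes for Regnase-1 loss. All 3 same-numbered pairs correlated over 0.1 between KO stimulated and KO control (0.159 to 0.204) and between KO and WT control libraries (0.113 to 0.337), but not between WT stimulated and WT control (0.055 to 0.196) or KO and WT stimulated libraries (−0.017 to 0.042). Between WT control and KO stimulated libraries all 3 were over 0.1 (0.345 to 0.542), the highest range, and between WT stimulated and KO control libraries 1 was (0.037 to 0.101). The rule for pairing was thus not met in every comparison, and a library correlated best with its own number in 12 of 18 checks. The shallow list of KO stimulated replicate 1 sets the common length, so intervals weaker than rank 35110 in deeper libraries were outside the tests.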
